A study of Mus musculus with 3 samples.

Results

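Gene expression in BIO cellulates was compared with that in the myoblasts from which they ultimately came. The comparison uses 2 of the 3 arrays of the series, chosen by the treatment given in the sample labels: the untreated C2C12 myoblast array and the array of cellulates given 2 days of BIO and no neurogenic medium. Of 18348 genes with a named probe, 12829 could be compared. The remaining array, from cellulates that went on to 7 days of neurogenic medium, is cited only for side-by-side values.

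All 3 cultures belong to C2C12, an established mouse line of muscle precursor cells, and no genetic change is given for any of them. The myoblasts were untreated. For the BIO cellulates, the series text describes 8 days of differentiation into myotubes in 2% horse serum, with 10 µM AraC, a nucleoside analogue that kills dividing cells, from day 2 to day 4. Myoseverin, a compound that binds microtubules, was then used for 48 h to divide the multinucleated myotubes into cellulates. BIO, 6-bromoindirubin-3'-oxime, an inhibitor of the kinase GSK-3, was added 24 h after myoseverin. The sources disagree on doses: BIO is 2.5 µM in the sample labels and 10 µM in the series text, and myoseverin is 20 µM in the series text and 30 µM in the treatment protocol. Myotubes before myoseverin and cellulates before BIO were not analysed here, so that differentiation, AraC, myoseverin and BIO cannot be told apart in any value below. The number of cultures behind each array is not given in the sources used here.

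RNA was hybridised to one-colour Agilent whole mouse genome arrays, 1 array per group and no replicates. The spread between cultures is therefore unknown, no p-value is given, and precision is limited by how few arrays there are. Each array had 43379 spots for genes; 22014 (50.7%) on the myoblast array and 20358 (46.9%) on the BIO array were well above background, and 0 were saturated. Levels are log2 signals relative to the 75th percentile of the array, which was 181 intensity units for myoblasts and 115 for BIO cellulates. Probes spotted 10 times on each array gave the measure of error used here, which covers spot-to-spot error within an array: from it, 95% of single-spot differences should fall inside 1.40-fold (0.49 on the log2 scale), called the repeat limit here. The scanner software's own error estimate had a median of 0.21 (log2) for the difference of a gene measured on both arrays. The phrase "at least" before a fold marks a lower bound, given where a gene was well above background on 1 array only. Where a gene was not well above background, absent RNA and a probe that gave no signal cannot be told apart. In RNA from a whole culture, fewer cells of a type and less RNA per cell cannot be told apart.

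Skeletal muscle forms when myoblasts, kept as dividing precursors, leave the cell cycle, fuse and build sarcomeres, the repeating units of actin, myosin and titin filaments that contract. The factors Myod1 and Myog switch on this programme together with the Mef2 family, and its late products include fast troponins, the calcium release channel and muscle creatine kinase. GSK-3 marks beta-catenin for destruction, so that its inhibition is known as a means to raise Wnt target genes, and it also restrains glycogen synthase.

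BIO cellulates had far more RNA of sarcomere, calcium-store and phosphagen genes than myoblasts, and less RNA of genes for chromosome segregation, DNA replication, sterol synthesis and parts of the matrix. Ckmt2, which makes creatine phosphate at the mitochondria of striated muscle, stood at -3.20 in myoblasts and 7.89 in BIO cellulates, a 2174-fold difference. The size of this fold is uncertain, since it rests on 1 probe and on a myoblast level near background. The lowest level called well above background on that array was -3.73. The mitotic cyclin gene Ccnb1 stood at 4.79 and 1.38, 10.6-fold lower. A level at least 2-fold above that of myoblasts was found for 1440 of the 12829 genes (11.2%), and one at least 2-fold below it for 771 (6.01%). Among the 11185 genes well above background on both arrays, 943 (8.43%) were higher and 686 (6.13%) lower. These shares are the background for the counts of list members that follow, but they change with the brightness of the genes, as given below. The higher side reached further: 75 genes passed 8-fold upward and 14 downward, and 21 and 0 passed 32-fold. Over all muscle lists together, 34 of 152 genes compared passed 8-fold upward, while 0 of the 128 genes of the cell-cycle lists did so and 6 passed it downward.

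**Figure D1:**
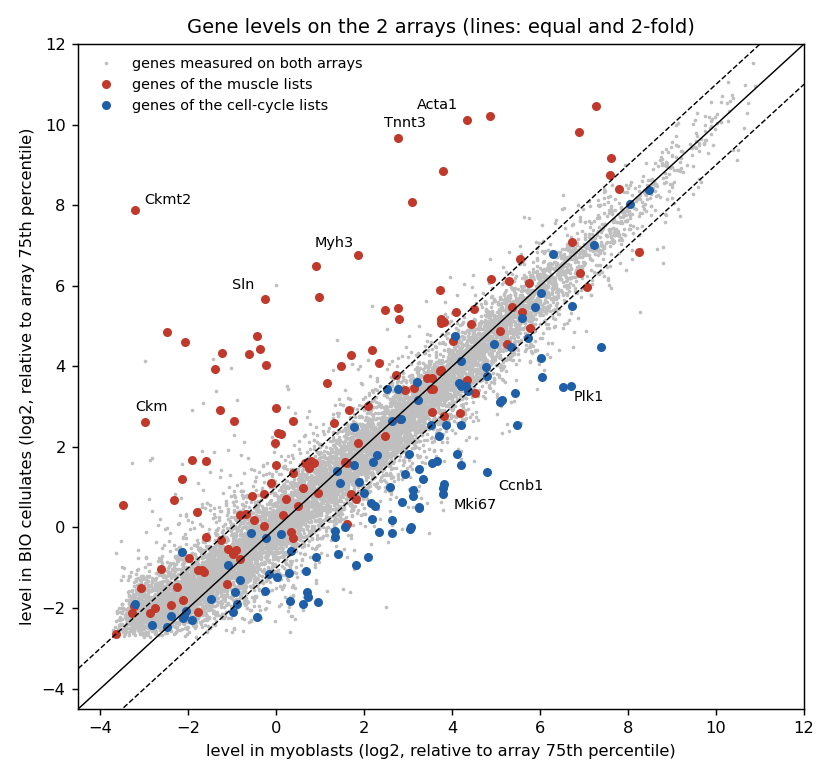
Each point is a gene well above background on both arrays, with its log2 level in myoblasts across and in BIO cellulates upward, relative to each array's 75th percentile. Solid and dashed lines mark equal levels and 2-fold differences. Many genes of the muscle lists (red), but not all, lie above the upper dashed line, up to Ckmt2 at -3.20 and 7.89. Many genes of the cell-cycle lists (blue) lie below the lower one, such as Ccnb1 at 4.79 and 1.38.

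The balance of higher and lower genes depended on how bright a gene was and on the scaling. When the genes measured on both arrays were divided into 4 equal bins by mean level, 19.2% of the dimmest bin were at least 2-fold higher and 2.00% lower, against 3.11% and 7.22% of the brightest. The 5449 genes not well above background on either array had a median log2 difference of 1.01, so a 2-fold excess of a dim gene carries little weight. Counts of higher members in lists of dim genes are better set against the share of the dimmest bin. Such lists include the glial, adipocyte and EGF and FGF lists, with median myoblast levels of -1.88, -1.87 and -1.22 for members measured there. Scaling each array to its median instead shifts every log2 ratio by -0.72, and the 75th percentile over probes well above background on both arrays shifts it by 0.17. Of all 2-fold differences, 65.1% were on the higher side, against 9.07% and 77.1% under these scalings and 50.4% after quantile normalisation. Among genes measured on both arrays the share was 57.9%, since bounds added 497 higher genes and 85 lower ones. The detection limits of the arrays differ, so that a gene under the myoblast limit passes 2-fold upward by a bound whenever the BIO array measures it. Of the 26 gene lists with a median above 0, 16 had a median below 0 with array medians, the largest of them 0.46. Differences near 2-fold are also named below, and the higher ones among them fall under 2-fold with array medians. Of 340 genes at least 2-fold different and considered for naming, 253 stayed so with array medians. Folds well above these shifts carry more weight. A second probe well above background on both arrays existed for 134 higher genes and 190 lower genes, and it was at least 2-fold different the same way in 50.0% and 56.8% of them, and had the same sign in 90.3% and 86.3%.

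**Figure D2:**
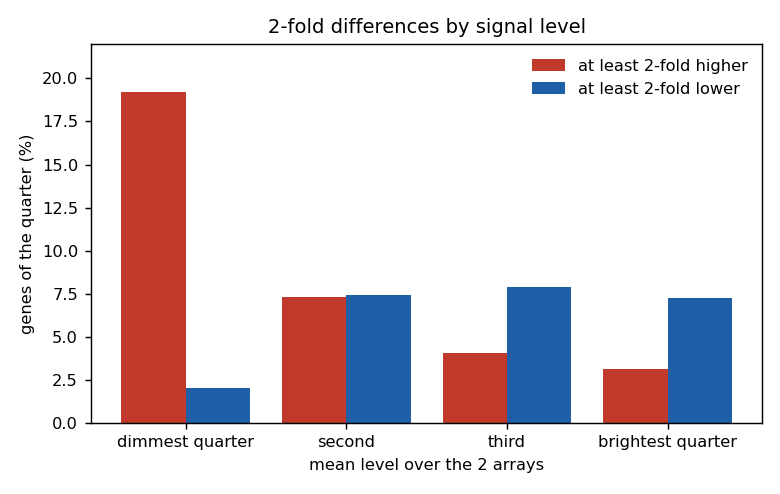
Bars give the percentage of genes at least 2-fold higher (red) or lower (blue) in BIO cellulates in each of 4 equal bins of genes by mean level over both arrays. Higher genes make up 19.2% of the dimmest bin and 3.11% of the brightest, while lower genes make up 2.00% and 7.22%.

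The labels were checked against markers. On the myoblast array the myogenic factor gene Myod1 stood at 0.62, the muscle intermediate filament gene Des at -0.97 and the myoblast cadherin gene Cdh15 at 7.07, all well above background, and Myf5, the other factor of proliferating myoblasts, was on neither array well above background. The muscle lists also hold myogenic factor, fusion and adhesion genes. Of their 177 genes, 141 were well above background in the myoblast culture and 144 on the BIO array. Over all 18348 genes with a named probe, 11185 were well above background on both arrays. A further 1146 were so in myoblasts only, 498 in BIO cellulates only, and 5449 on neither array. Myog, which acts at the onset of differentiation, stood at 5.75 in myoblasts, and the slow troponin C gene Tnnc1 at 7.59. Of 16 endothelial and blood cell markers, 10 were on neither array well above background, among them Pecam1, Cdh5 and Ptprc, and 0 of the 6 others were 2-fold different. Of 17 adipocyte markers, 5 were on neither array well above background, among them Adipoq and Fabp4, and 11 were measured on both. These shares are close to those over all genes given above. Of 16 fibroblast markers, 7 were on neither, among them Pdgfra, Dpt and Lum, and 9 were measured on both with a median myoblast level of 5.23, Col3a1 at 5.23 and Postn at 3.75 among them.

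Myosins, the motors of the thick filament, were among the most different genes. Among 7 sarcomeric heavy chain genes, 4 passed 2-fold on the higher side and 0 on the lower (median log2 ratio 1.15, but 0.52 with quantile normalisation and 0.15 with normexp background correction and quantile normalisation). Normexp as used here adds 50 intensity units to every spot, which shrinks folds of dim genes. Embryonic Myh3 went from 1.86 in myoblasts to 6.77, 30.1-fold higher, with 5.13 on the log2 scale by its second probe. The perinatal chain Myh8 (from 4.08 to 5.34) and the fast adult chain Myh1 (from 3.81 to 5.10) differed by 2.38-fold and 2.44-fold. Adult fast Myh4 and Myh2 and cardiac Myh6 lay near background, at -1.99, -2.12 and -2.12 in BIO cellulates, and slow Myh7 was well above background in myoblasts only. Heavy chain genes are close paralogs, and probes may share signal among them. The embryonic chain thus differed most, and the perinatal and fast chains, measured clearly on both arrays, by less.

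Light chain and myosin-binding protein genes passed 2-fold on the higher side in 7 of 9 members and on the lower side in 0 (median 3.40, but 1.20 with normexp). The fast regulatory light chain gene Mylpf stood at 4.85 in myoblasts and 10.22 in BIO cellulates, 41.2-fold higher. The embryonic light chain gene Myl4 went from 3.08 to 8.09 (32.2-fold) and Mybph, a myosin-binding protein gene, from -0.62 to 4.32 (30.7-fold), and their second probes gave log2 ratios of 5.13 and 4.03. Myl3, of slow muscle, was 162-fold higher by its brighter probe, at -2.49 and 4.85, but its other probe gave a log2 ratio of 0.70. Mybpc1, Myl2 and Myl1 were at background in myoblasts and at least 10.5-fold, 8.44-fold and 3.54-fold higher. The light chain kinase gene Mylk2 (log2 ratio 0.34) and cardiac Mybpc3 (-0.28) stayed inside the repeat limit.

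The promoters of Mylpf and Acta1, skeletal muscle actin, are shown because they belong to genes with large differences and hold motifs of muscle transcription factors. Each window covers 250 bases before and 50 after the start site, from the RefSeq promoter table on build GRCm38.p6, on the gene's strand, at chr7:127211358-127211657 (plus strand) for Mylpf and chr8:123894726-123895025 (minus strand) for Acta1. Capitals mark an E-box, CAGCTG, the kind of site that Myod1 and Myog bind, with its first base at -51 in Mylpf, and a CArG box, the site of serum response factor, at -73 in Acta1. The Acta1 window also holds an E-box, left in lower case.
Mylpf: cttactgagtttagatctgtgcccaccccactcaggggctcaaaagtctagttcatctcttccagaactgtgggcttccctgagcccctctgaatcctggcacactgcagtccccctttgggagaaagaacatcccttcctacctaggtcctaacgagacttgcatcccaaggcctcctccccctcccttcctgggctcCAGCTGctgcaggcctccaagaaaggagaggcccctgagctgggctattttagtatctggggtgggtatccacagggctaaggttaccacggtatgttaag
Acta1: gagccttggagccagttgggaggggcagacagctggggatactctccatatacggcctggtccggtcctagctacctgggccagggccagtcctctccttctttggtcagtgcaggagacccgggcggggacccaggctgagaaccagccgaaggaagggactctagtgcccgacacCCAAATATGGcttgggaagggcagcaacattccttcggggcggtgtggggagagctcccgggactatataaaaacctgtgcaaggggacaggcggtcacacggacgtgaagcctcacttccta
The E-box was found in 7 of 12 promoters of the light chain list (58.3%) and 5 of 11 of the thin filament list (45.5%), against 18.3% of the 27025 genes with a promoter in the table. The CArG box was found in 2 of 11 thin filament promoters (18.2%) and in 1.81% of all, and a MEF2 site in 0 of 11 and 3.70%. In the light chain list both the CArG box and the MEF2 site were found in 2 of 12 (16.7%). Over the genes at least 2-fold higher, the E-box share was 22.9%. All motifs were searched on both strands, and a match describes letters in the window, not a bound site.

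In the thin filament, 8 of 13 genes for troponins, tropomyosins and sarcomeric actins were at least 2-fold higher and 1 lower. Their median was 1.16, or 0.44 with array medians. Fast troponin T, Tnnt3, went from 2.77 to 9.67, 119-fold higher, with 6.80 on the log2 scale by its second probe. Acta1 went from 4.34 to 10.12 (55.0-fold). The inhibitory troponins Tnni1 (slow; 0.89 to 6.49) and Tnni2 (fast; 3.79 to 8.86) were 48.4-fold and 33.4-fold higher. The difference was thus not limited to fast forms. Several genes of the same filament were bright on both arrays: slow Tnnt1 had a log2 ratio of 0.84, Tpm2 one of 0.60, and Tnnc1 and the cardiac-type Tnnt2, which embryonic muscle also makes, were 2.23-fold and 2.19-fold higher. Cardiac actin Actc1, the embryonic form of skeletal muscle, stood at 5.24 and 4.56, a log2 ratio of -0.67. Tpm3 was 2.67-fold lower by its brighter probe and gave 0.66 by the other.

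Genes for the Z-disc, titin and the M-band, which anchor and align the filaments, had 18 of 26 members at least 2-fold higher and 0 lower (median 2.21, or 1.24 with normexp). Xirp1, an actin-binding repeat protein, went from -0.44 to 4.76 (36.7-fold), and the muscle LIM protein gene Csrp3 from 0.98 to 5.71 (26.6-fold). Among the giant filament proteins, nebulin, Neb, was 19.4-fold higher and titin, Ttn, 18.3-fold. The M-band gene Myom2 was at least 17.6-fold higher, whereas Myom1 and Myom3 were on neither array well above background. Des went from -0.97 to 2.64, 12.2-fold higher. Ankrd1, a stretch-responsive gene, and filamin C, Flnc, were bright on both arrays, with log2 ratios of 0.37 and -0.22.

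Genes that build sarcomeres had a median of 1.99, or 1.37 with normexp, and 10 of 14 were at least 2-fold higher and 0 lower. Mustn1, a small nuclear protein of muscle and bone, went from -2.07 to 4.61, 103-fold. Lmod2, which elongates thin filaments, was at background in myoblasts and at least 32.6-fold higher, while Lmod3 was 2.16-fold higher and Lmod1, of smooth muscle, had a log2 ratio of 0.17. The myosin chaperone gene Unc45b went from -0.37 to 4.42 (27.8-fold), and Smyd1, a methyltransferase that works with it, stood at 1.60 and 1.60. Srpk3, a muscle splicing kinase, was 9.50-fold higher. Myo18b and Abra, genes of sarcomere assembly and actin signalling outside the list, had 2 of the largest bounds, at least 115-fold and 30.5-fold.

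Excitation-contraction coupling, by which a membrane signal opens the calcium store, had 12 of 22 genes at least 2-fold higher and 0 lower. The median was 1.29, or 0.57 with array medians. Sarcolipin, Sln, which restrains the calcium pump, went from -0.26 to 5.66 (60.5-fold), and Hrc, a calcium-binding protein of the store, from -1.23 to 4.33 (47.2-fold). The release channel Ryr1 went from -1.39 to 3.94 (40.4-fold), and its second probe gave 5.30 on the log2 scale. Channel subunits of the membrane differed unequally, with Cacng6 11.9-fold, Cacnb1 6.42-fold and the voltage sensor Cacna1s 2.43-fold higher. The adaptor Stac3 was 5.95-fold higher, and the fast-fibre calcium pump gene Atp2a1 7.53-fold. Jph2, which holds the membranes together, and Scn4a, the muscle sodium channel, had log2 ratios of 0.24 and 0.06, inside the repeat limit.

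At the neuromuscular junction, 6 of 11 genes passed 2-fold on the higher side and 0 on the lower. The median was 1.04, or 0.32 with array medians and 0.54 with normexp. The fetal receptor subunit Chrng went from 0.03 to 2.35 (4.97-fold) and the adult subunit Chrne from -0.04 to 2.10 (4.41-fold). Chrna1 and Chrnd were 2.99-fold and 2.32-fold higher, and Chrnb1 had a log2 ratio of 0.32. The clustering proteins differed less: the receptor kinase Musk had a log2 ratio of 0.14 and Rapsn, at 5.09 in myoblasts, one of -0.21. In the dystrophin complex, 2 of 12 genes were higher and 1 lower. Dtna was at least 5.27-fold higher, and Utrn, the widely expressed relative of dystrophin, was 2.05-fold lower. The median of that list was 0.32, or -0.24 with array medians.

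Energy supply of the muscle fibre differed in its phosphagen and glycogen parts. Of 10 genes for phosphagen, nucleotide and oxygen handling, 7 were at least 2-fold higher and 0 lower (median 1.47, or 0.75 with array medians). After Ckmt2, the cytosolic muscle creatine kinase Ckm went from -2.99, near background, to 2.62 (49.0-fold), and myoglobin, Mb, from -2.15 to 1.20 (10.2-fold). The AMP deaminase of muscle, Ampd1, was at least 74.9-fold higher. Ckb, the brain-type creatine kinase, had a log2 ratio of 0.06 by its brighter probe and 2.75 by the other. Cox6a2, the muscle subunit of cytochrome c oxidase, went from -0.01 to 6.02 (65.0-fold). Among 22 genes of glycogen and muscle glycolysis, 6 were higher and 1 lower: glycogen phosphorylase Pygm went from -1.43 to 4.19 (49.1-fold), and muscle phosphoglycerate mutase Pgam2 from 0.26 to 3.44 (9.09-fold). Eno3, the muscle enolase, was 2.39-fold and the glycogen primer Gyg 2.76-fold higher, and Slc2a3, a glucose transporter, 2.70-fold lower. The target kinases of BIO themselves differed little, Gsk3b by a log2 ratio of -0.24, and Gsk3a was too close to background for a fold. The glycogen list had a median of 0.46, or -0.20 with array medians. Fatty acid oxidation and mitochondrial genes also had a median of 0.46, or -0.21 with array medians, and 3 of 18 were higher: the lipoprotein lipase Lpl (4.13-fold), the fatty acid carrier Cd36 (at least 3.61-fold) and the nuclear receptor Esrra (2.33-fold).

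The regulators of the programme differed much less than its products. Of 11 myogenic transcription factor genes compared, 2 were at least 2-fold higher, Mef2a (from 4.88 to 6.17, 2.45-fold) and Mef2d (1.66 to 2.91, 2.37-fold), and 0 were lower. Myod1 stood at 0.62 and 0.98, and Myog at 5.75 and 6.06, log2 ratios of 0.36 and 0.31 that lie inside the repeat limit. Pax7, of muscle stem cells, was near background at -1.79 and -1.05. Their median was 0.36, or -0.35 with array medians. Fusion and adhesion genes went both ways. Itga7, the laminin receptor of muscle fibres, went from 1.48 to 4.00 (5.72-fold), while 5 of 17 were at least 2-fold lower: Cdh15 (2.15-fold), the adhesion receptor Cdon (2.50-fold), the protease Adam12 (2.88-fold) and the Rac activators Dock1 (2.28-fold) and Dock5 (2.17-fold). Mymk, required for fusion, had a log2 ratio of 0.97.

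**Figure D3:**
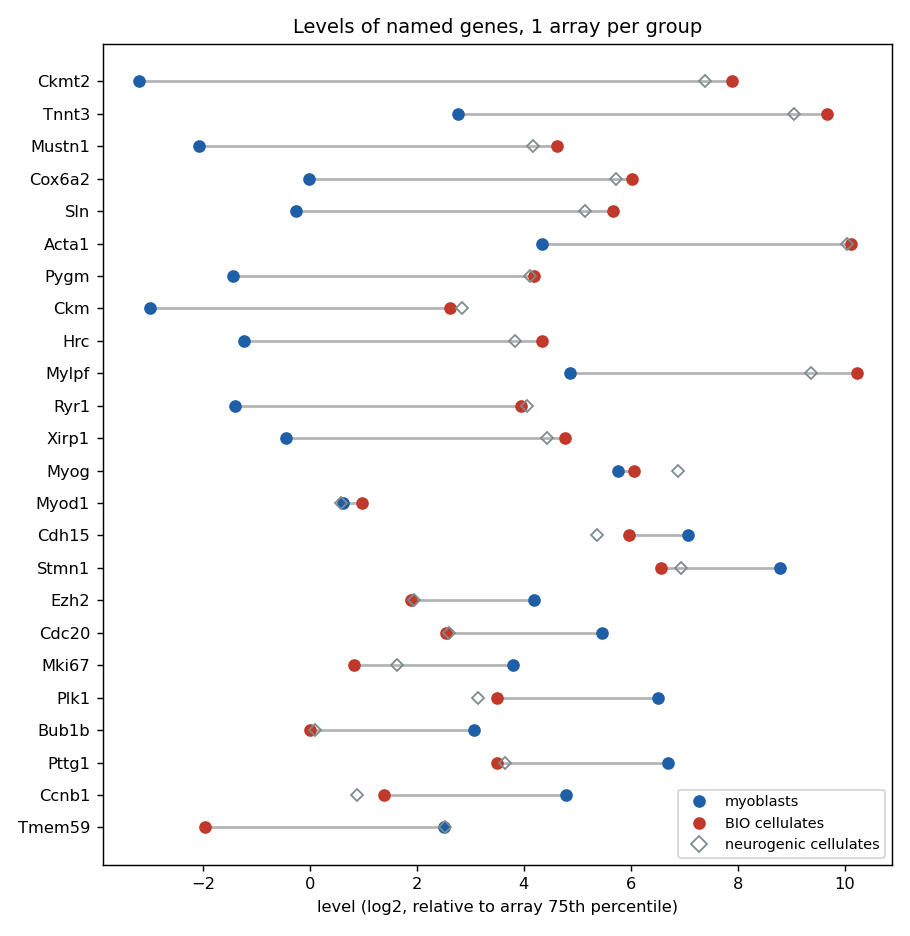
Log2 levels of named genes relative to each array's 75th percentile, in myoblasts (blue), BIO cellulates (red) and, for reference, neurogenic cellulates (open diamonds), with 1 array per group and no error bars. The upper genes are far to the right in BIO cellulates, as Tnnt3 at 2.77 in myoblasts and 9.67, the division genes are to the left, as Plk1 at 6.51 and 3.50, and Myod1 and Myog have nearly equal levels.

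Mitosis genes formed the group with the lowest median. Of 34 mitosis and kinetochore genes compared, 25 were at least 2-fold lower and 1 higher, with a median log2 ratio of -2.48, or -1.86 with normexp, against 6.01% lower over all genes. Another 7 of the 41 on the array were well above background on neither array and gave no ratio, against 5449 of all 18348 genes. The mitotic kinase genes Aurka and Aurkb were also on neither array well above background. Ccnb1, the cyclin that with Cdk1 drives entry into mitosis, was 10.6-fold lower, and Cdk1 itself went from 4.21 to 1.54 (6.34-fold). Securin, Pttg1, went from 6.70 to 3.50 (9.18-fold lower) and the anaphase activator Cdc20 from 5.47 to 2.54 (7.62-fold). The checkpoint kinase gene Bub1b and the mitotic kinase gene Plk1 were 8.37-fold and 8.10-fold lower, and the proliferation marker Mki67 went from 3.79 to 0.83 (7.80-fold). Ncapg, of the condensin complex that compacts chromosomes, had only background signal on the BIO array, at least 12.4-fold lower. RNA of these genes was still measured, since Plk1, Kif20a and Pttg1 stood at 3.50, 4.47 and 3.50 on the BIO array. The one higher gene was the kinetochore gene Nuf2 (-3.20 to -1.90, 2.46-fold), and Bub1 had a log2 ratio of 0.41 by its brighter probe and -2.60 by the other. Outside the list, the centromere gene Cenpw was 9.75-fold and the spindle gene Tacc3 8.63-fold lower.

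Promoters of 3 cell-cycle genes are shown because they hold, in turn, the motifs common in this group. Windows are as above: chr5:45669675-45669974 (plus strand) for Ncapg, chr13:100786437-100786736 (minus strand) for Ccnb1 and chr11:98907901-98908200 (plus strand) for Cdc6, the loader of the replicative helicase. Capitals mark the cell-cycle homology region (CHR), TTTGAA, at -30 in Ncapg, the NF-Y box, CCAAT, at -99 and -67 in Ccnb1, and an E2F site, TTTCNCGC, read on the opposite strand at -138 in Cdc6.
Ncapg: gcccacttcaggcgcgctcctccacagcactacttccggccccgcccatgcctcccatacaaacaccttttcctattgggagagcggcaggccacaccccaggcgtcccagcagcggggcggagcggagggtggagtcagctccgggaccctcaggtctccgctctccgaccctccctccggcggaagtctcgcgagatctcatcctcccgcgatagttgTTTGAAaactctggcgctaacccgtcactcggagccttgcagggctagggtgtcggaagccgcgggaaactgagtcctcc
Ccnb1: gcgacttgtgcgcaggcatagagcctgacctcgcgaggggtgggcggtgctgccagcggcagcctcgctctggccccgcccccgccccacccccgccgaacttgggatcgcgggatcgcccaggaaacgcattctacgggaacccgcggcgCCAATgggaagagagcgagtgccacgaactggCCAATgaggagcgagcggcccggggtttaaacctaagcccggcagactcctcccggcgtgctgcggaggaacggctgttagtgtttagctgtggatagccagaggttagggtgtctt
Cdc6: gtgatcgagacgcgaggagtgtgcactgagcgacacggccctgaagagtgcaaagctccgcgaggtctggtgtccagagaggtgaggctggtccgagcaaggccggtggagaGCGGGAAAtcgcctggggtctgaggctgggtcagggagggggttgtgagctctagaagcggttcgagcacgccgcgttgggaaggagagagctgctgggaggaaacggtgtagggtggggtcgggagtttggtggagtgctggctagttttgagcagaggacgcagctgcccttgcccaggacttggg
The CHR was found in 27 of 36 mitosis promoters (75%), against 20.2% of all genes in the table, and the NF-Y box also in 27 of 36, against 41.1%. The E2F site was found in 11 of 31 promoters of the replication list (35.5%), against 2.44% of all genes. Over the genes at least 2-fold lower, the shares were 23.2% for the CHR, 53.1% for the NF-Y box and 9.50% for the E2F site. Over all genes compared they were 15.6%, 42.2% and 4.00%. The NF-Y box was also found in 7 of 12 promoters of the light chain list (58.3%), a list that leaned higher. The E2F site and the ISRE core named further on share the letters TTTC, which read GAAA on the opposite strand. These shares are descriptions only, since lists and motifs were chosen with earlier results of the arrays known. Lists drawn from known biology may also hold a motif through the choice of their members.

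DNA replication genes were lower by less than the mitosis genes. Of 31 compared, 19 were at least 2-fold lower and 1 higher, with a median of -1.53. Another 8 of the 39 on the array were well above background on neither array. The GINS subunit gene Gins1 went from 3.81 to 1.08 (6.63-fold lower), with -2.88 on the log2 scale by its second probe. Licensing factors Cdc6 and Cdt1 were 5.47-fold and 4.96-fold lower, and the helicase subunits Mcm7 and Mcm6 4.96-fold and 4.81-fold. The sliding clamp Pcna went from 6.72 to 5.50, 2.33-fold lower. The clamp loader subunit Rfc4, the higher gene, was near background in myoblasts (-2.14 to -0.61). In DNA repair and checkpoint, 11 of 16 genes were lower and 0 higher (median -1.47), among them Fanci (6.98-fold), the checkpoint kinase Chek1 (4.40-fold) and Brca1 (4.20-fold).

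Cyclins and kinases of the list leaned lower. Of 14, 6 were at least 2-fold lower and 0 higher (median -0.84). The S-phase cyclin Ccna2 went from 3.12 to 0.77 (5.10-fold lower) and the phosphatase Cdc25b from 3.33 to 1.21 (4.33-fold). Ccne1 was 2.02-fold lower. The D-type cyclins, which respond to growth signals, had log2 ratios of 0.51 for Ccnd2 and -0.21 for Ccnd3, a gene that differentiating muscle keeps on. Among inhibitors and regulators of cell-cycle entry, 6 of 15 were lower and 1 higher (median -0.34): E2f1 and E2f2, activators of S-phase genes, were 2.21-fold and 2.68-fold lower, and the pocket protein genes diverged, with Rbl1, of cycling cells, 2.98-fold lower and Rbl2, of resting cells, at least 3.11-fold higher. The kinase inhibitors Cdkn1a (1.77 to 2.49) and Cdkn1b (4.17 to 3.59) had log2 ratios of 0.72 and -0.57. Targets of p53 showed 1 of 18 genes at least 2-fold lower, Gadd45b (2.06-fold), and 0 higher, near the background shares, and Mdm2 and Bax had log2 ratios of -0.13 and -0.41.

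In sterol synthesis, 10 of 21 genes were at least 2-fold lower and 0 higher (median -0.99). Dhcr7, the last reductase of the pathway, went from 1.16 to -1.57 (6.64-fold lower). Squalene synthase Fdft1 and the isomerase Idi1 were 3.57-fold and 3.45-fold lower, and the master regulator Srebf2 had a log2 ratio of -0.92. The fatty acid synthase Fasn, a marker in the adipocyte list, was 2.24-fold lower. Cytosolic ribosomal protein genes gave a contrast, with 1 of 39 at least 2-fold higher, Rpl14 by a bound, 0 lower and a median of -0.03, or -0.75 with array medians and 0.14 with the 75th percentile over probes well above background on both arrays. Ribosome biogenesis genes had 2 of 15 lower, fibrillarin Fbl (2.33-fold) and the helicase Ddx21 (2.16-fold, with 0.10 on the log2 scale by its second probe).

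Matrix genes leaned lower. Of 15 collagen chain genes compared, 6 were at least 2-fold lower and 1 higher (median -0.78). The type I collagen chains diverged: Col1a1 went from 8.83 to 7.58 (2.38-fold lower, and -1.24 on the log2 scale by a second probe), while Col1a2 stood at 10.72 and 10.54. Basement membrane Col4a1 was 2.19-fold lower, and Col3a1 was 2.14-fold higher. Among matricellular proteins and glycoproteins, 10 of 24 were lower and 2 higher (median -0.72). Fibulin, Fbln1, went from 0.32 to -1.71 (4.10-fold lower), periostin, Postn, from 3.75 to 1.93 (3.52-fold), and the crosslinking oxidase Loxl1 from 6.27 to 4.57 (3.24-fold). Thrombospondin Thbs1 was 3.43-fold lower, fibrillin Fbn1 2.83-fold and the oxidase Loxl2 3.09-fold by its brighter probe. The other Loxl2 probe gave a log2 ratio of -0.30, inside the repeat limit. Sparc and decorin, Dcn, had log2 ratios of -0.27 and 0.02.

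Proteases of the matrix and their inhibitors were mixed, with 3 of 12 lower and 2 higher. The inhibitor Timp3 went from -1.91 to 0.14 (4.12-fold higher) and Timp4 was 2.18-fold higher, while Adamts1, Adamts4 and the membrane protease Mmp14 were 2.58-fold, 2.54-fold and 2.22-fold lower. Their median was -0.65, but 0.20 when dim probes were kept. Of 13 integrin-related genes, 3 were higher and 0 lower. Itgb1bp2, melusin, a muscle protein that binds integrin tails, went from -0.89 to 3.17 (16.6-fold), beside Itga7. The third, the epithelial integrin Itgb6, went from -1.79 to -0.38 (2.66-fold). Other matrix receptors, such as Itgb1 (-0.72 on the log2 scale) and Itga5 (-0.17), were not 2-fold different.

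Myoseverin acts on microtubules, so tubulins and microtubule proteins were listed. Of 21, 6 were at least 2-fold lower and 3 higher (median -0.58). Stathmin, Stmn1, a destabiliser of microtubules that dividing cells make, went from 8.79 to 6.57 (4.65-fold lower), and its second probe gave -2.67. The tubulins Tuba1c and Tubb5 went from 7.58 to 6.49 and from 8.61 to 7.89, log2 ratios of -1.10 and -0.72, while Tuba4a and Tubb2a had log2 ratios of 0.16 and -0.26. Tubulin genes are near-identical copies, and probes may share signal among them. The microtubule-associated protein genes also differed in both directions, with Mapt 3.65-fold and the end-binding Mapre3 3.47-fold higher and Map2 and Map1b 4.20-fold and 3.11-fold lower.

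Targets of SRF and YAP, factors that respond to actin and cell shape, had 5 of 23 at least 2-fold lower and 0 higher (median -0.42). Tagln2 went from 6.42 to 4.39 (4.06-fold lower), calponin Cnn1 from 7.15 to 5.77 (2.60-fold), and cytoplasmic actin Actg1 from 10.38 to 9.37 (2.02-fold). Filamin A, Flna, was 2.10-fold lower. The YAP targets Ccn2 and Ankrd1 had log2 ratios of 0.10 and 0.37. The Actg1 window (GRCm38.p6, chr11:120348446-120348745, minus strand) is printed to set beside that of Acta1, since both actin promoters hold a CArG box, in capitals and at -90 here, while their genes lay on opposite sides of equality.
Actg1: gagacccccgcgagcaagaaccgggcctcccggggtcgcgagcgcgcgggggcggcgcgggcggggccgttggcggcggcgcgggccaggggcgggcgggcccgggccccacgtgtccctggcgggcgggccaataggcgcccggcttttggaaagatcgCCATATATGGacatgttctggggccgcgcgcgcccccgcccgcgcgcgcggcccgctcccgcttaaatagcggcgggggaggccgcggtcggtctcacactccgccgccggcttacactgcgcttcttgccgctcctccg
A CArG box was found in 5 of 20 promoters of the SRF and YAP list (25.0%), against 1.81% of all genes in the table. The list was made of targets of SRF, so a high share of its site there is no finding of these arrays.

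Targets of beta-catenin and Wnt feedback genes were of interest because BIO inhibits GSK-3. Of 21 compared, 3 were at least 2-fold higher and 4 lower, with a median of -0.05, or -0.77 with array medians. Axin2, the most general target, was on neither array well above background, so its RNA could not be compared. Rnf43, which removes Wnt receptors, went from -2.17 to 0.72 (7.46-fold higher), and the feedback inhibitor Nkd2 from -2.44 to -0.33 (4.34-fold), both from levels near background in myoblasts. The third, Ccn5, stayed near background at -1.80. Lower genes were Ccn4 (2.83-fold), the Wnt transcription factor Lef1 (2.49-fold), the activin inhibitor Fst (2.07-fold) and Id2 (2.00-fold). Myc had a log2 ratio of 0.89, and Tcf7l2 one of -0.99.

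Notch genes went both ways. The ligands Dll1 (-2.52 to -0.05, 5.56-fold) and Dll4 (2.41 to 4.14, 3.31-fold) were higher, and the receptors Notch3 and Notch1 were 2.39-fold and 2.14-fold lower. The targets Hes1 and Nrarp were 2.18-fold and 2.35-fold lower, whereas Hes5 was 2.10-fold higher. In all, 4 of 18 were higher and 4 lower. In the BMP and TGF-beta family, 3 of 27 were lower (the inhibitory Smad6, 2.08-fold, Fst and Id2) and 1 higher, Bmp2, at least 2.47-fold and near background. The targets Id1 and Id3 had log2 ratios of -0.16 and -0.52.

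Among IGF and imprinted growth genes, Mest went from 5.35 to 3.12 (4.67-fold lower), and Igf2r and Grb10 were 2.14-fold and 2.13-fold lower. Igfbp5, a binding protein that differentiating muscle secretes, went from -1.63 to -0.36 (2.42-fold higher), and Igf2 stood at 7.94 and 8.49. Of 16 genes in that list, 2 were higher and 3 lower. The EGF and FGF list had 5 of 21 higher and 3 lower. Amphiregulin, Areg, an EGF receptor ligand, was well above background in myoblasts only, at 0.69, and at least 10.5-fold lower, and the feedback inhibitor Errfi1 was 2.53-fold lower. Fgf21, a secreted stress signal of muscle, was 3.51-fold higher from a level near background. Of 16 immediate early and AP-1 genes, 3 were higher and 1 lower: the nuclear receptor Nr4a1 went from 2.17 to 5.49 (9.98-fold), Atf3 from -1.63 to 0.49 (4.34-fold), and Maff was 4.52-fold lower.

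Interferon-stimulated genes, which cells turn on against viruses, were higher in 9 of 19 members compared and lower in 1. Their median was 0.98, or 0.26 with array medians and 0.38 with normexp. Usp18, which strips the ubiquitin-like protein ISG15 from its targets, went from -1.92 to 2.92 (28.7-fold) and Isg15 from -1.68 to 1.89 (11.9-fold). The regulator Irf7 was 3.03-fold higher, the immunoproteasome subunits Psmb8 and Psmb9 2.46-fold and 2.33-fold, and the RNA sensor Ifih1 at least 3.51-fold. Other members were dim: 14 of 33 members on the array, Ifit1, Ifit3 and Oas1a among them, were on neither array well above background. The Isg15 window (GRCm38.p6, chr4:156200769-156201068, minus strand) is shown because it holds 3 overlapping matches, at -78, -72 and -66, to the core of the interferon-stimulated response element (ISRE), GAAANNGAAA, here in capitals.
Isg15: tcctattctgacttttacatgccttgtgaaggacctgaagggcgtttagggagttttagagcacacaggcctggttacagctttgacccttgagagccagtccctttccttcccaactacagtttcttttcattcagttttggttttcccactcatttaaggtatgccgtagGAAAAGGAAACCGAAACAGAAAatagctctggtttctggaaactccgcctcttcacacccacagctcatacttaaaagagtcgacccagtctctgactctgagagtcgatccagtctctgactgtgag
The ISRE core was found in 12 of 27 promoters of the list (44.4%), against 3.99% of all genes in the table and 4.30% of genes at least 2-fold higher. The list was made of interferon-stimulated genes, so its high share comes with the choice of members. Among cytokines and NF-kB feedback genes, 4 of 18 were higher and 1 lower (median 0.30, or -0.30 with array medians): the chemokine Ccl7 went from -1.41 to 1.87 (9.68-fold) and Ccl2 from -0.78 to 0.57 (2.55-fold), Il6 was 2.92-fold higher, and Cxcl12 2.12-fold lower.

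**Figure D4:**
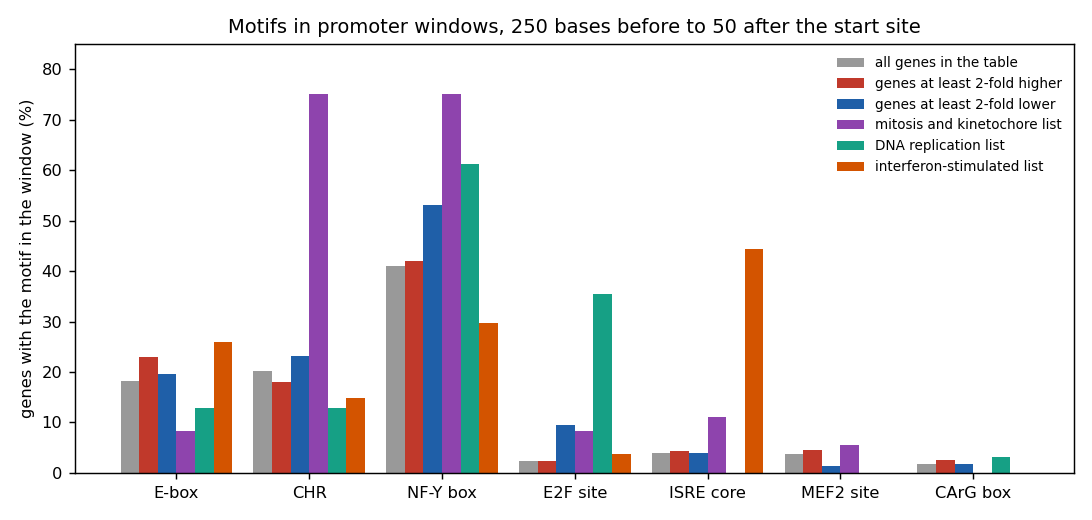
Bars give the percentage of genes whose promoter window, 250 bases before to 50 after the start site, holds each motif on either strand, for all 27025 genes in the RefSeq table (grey), genes at least 2-fold higher or lower, and 3 gene lists. The mitosis list reaches 75% for the CHR against 20.2% of all genes, the replication list 35.5% for the E2F site against 2.44%, and the interferon list 44.4% for the ISRE core against 3.99%.

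In the amino acid and integrated stress response, 5 of 22 genes passed 2-fold on the higher side and 0 on the lower (median 0.42, or -0.30 with array medians): the stress factor Ddit3 went from 3.74 to 5.16 (2.68-fold), and Ppp1r15a, which restores translation, Trib3, Nupr1 and Asns were 2.48-fold, 2.16-fold, 2.09-fold and 2.03-fold higher. The chaperones of the endoplasmic reticulum were not higher with them, since 0 of 19 were higher and 1 lower, Pdia4 (2.49-fold), and Hspa5 stood at 7.47 and 7.51. Among cytosolic heat shock genes, 3 of 18 were higher and 0 lower, all small heat shock proteins that muscle makes: Hspb7 (0.10 to 2.32, 4.65-fold), Hspb6 (2.35-fold) and Hspb8 (at least 2.20-fold). In the oxidative stress list, 4 of 23 were higher and 0 lower (median 0.37, or -0.34 with array medians), with the glutathione transferase Gsta1 at 0.25 and 3.52 (9.61-fold) and heme oxygenase Hmox1 at 4.48 and 6.26 (3.42-fold).

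Indirubins, the class of BIO, are known ligands of the aryl hydrocarbon receptor. Of 11 genes of that pathway on the array, 7, including its main targets Cyp1a1 and Cyp1b1, were on neither array well above background. Tiparp, a target that was measured on both, stood at 3.88 and 4.82, a log2 ratio of 0.93, and Cyp1a2 was near background at -3.29 and -2.19. Hypoxia genes were higher in 6 of 19 and lower in 1 (median 0.22, or -0.49 with array medians), with the glucose transporter Slc2a1 2.87-fold, the angiogenic factor Vegfa 2.68-fold and Adm 2.23-fold higher and Car9 at a log2 ratio of 0.22. In the atrophy list, 3 of 16 were higher: Klf15, a factor induced by glucocorticoids, went from -2.31 to 0.83 (8.80-fold, and 0.86 on the log2 scale by its second probe), and the ubiquitin ligase Fbxo32 was 2.81-fold higher, while Trim63, the other ligase of atrophy, was at background on both arrays. Of 19 caspase and apoptosis genes, 2 were higher and 1 lower, the initiator caspase Casp2 (2.74-fold lower).

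Of 16 satellite cell and quiescence markers, 2 were higher and 2 lower, and the phagocytic receptor gene Megf10 of satellite cells was at least 6.77-fold lower. Of 10 pluripotency genes compared, 1 was higher and 1 lower, both by bounds, Pou5f1 was near background at -2.71 and -2.21, and Sox2 was not well above it on either array. In the chromatin list, 5 of 19 were lower and 0 higher: the Polycomb methyltransferase Ezh2 went from 4.19 to 1.89 (4.91-fold lower) and Hmgb2 from 6.75 to 4.48 (4.84-fold), while the other Polycomb subunits Eed and Suz12 had log2 ratios of -0.07 and -0.60. Hmga2 was 3.30-fold lower by its brighter probe and 1.59 on the log2 scale by the other.

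Neuronal genes, which matter for the neurogenic step that follows, were higher in 9 of 23 members and lower in 2, with a median of 0.40, or -0.02 with array medians. The vesicle protein Vamp2 went from 1.72 to 4.06 (5.08-fold) and Camk2a from -0.58 to 1.46 (4.13-fold), and Mapt was higher as given above. Eno2, the neuronal enolase, was 2.54-fold higher. Of the others, Dcx, Elavl3, Dlg4 and Stmn2 lay between -2.25 and -1.80 in BIO cellulates, near the lowest level called above background there, -2.73. The neurofilament gene Nefl and the synaptic genes Syp and Snap25 were on neither array well above background. Uchl1 and Map2 were 2.51-fold and 4.20-fold lower. Of 14 neural progenitor factors, 1 was higher and 2 lower, Sox4 (2.18-fold) and Sox11 (2.79-fold), and nestin, Nes, which myoblasts also make, stood at 6.72 and 7.51. Glial genes had 3 of 14 higher and 0 lower, with a median of 0.41, or -0.31 with array medians, and these 3, Mog, Aldh1l1 and Erbb3, stood at -2.14, -1.45 and -1.89 in BIO cellulates.

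Markers of neighbouring lineages went both ways. Of 13 smooth muscle markers, 2 were higher (Des and Rgs5) and 2 lower (Notch3 and Cnn1), and Acta2 stood at 7.55 and 8.20. Of 12 adipocyte markers, 3 were higher, Lpl from 0.69 to 2.74 and Retn and Scd1 near background, and 1 was lower. Among osteoblast and chondrocyte markers, 3 of 11 were higher, all near background, and 3 lower: the bone factor Runx2 went from 1.74 to 0.06 (3.21-fold lower), Comp was 3.46-fold lower and Sp7 at least 2.74-fold. Fibroblast markers had 1 of 9 higher and 2 lower.

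**Figure D5:**
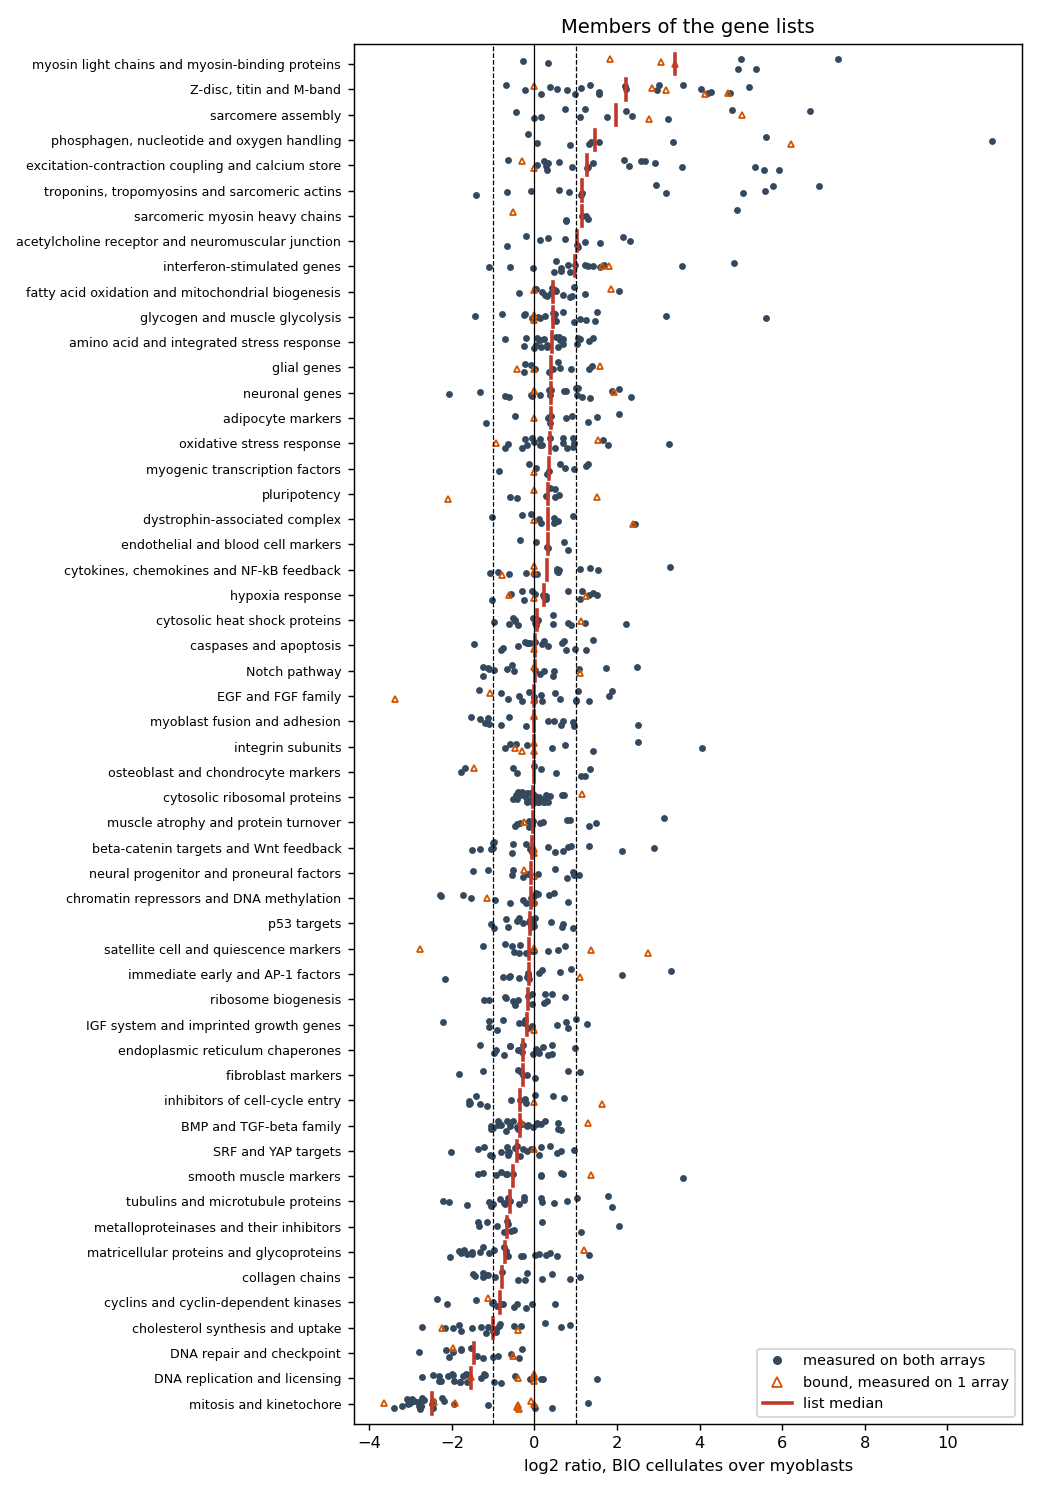
Each row is a gene list with at least 5 members compared, ordered by its median log2 ratio of BIO cellulates over myoblasts (red bar), with filled circles for genes measured on both arrays and open triangles for bounds. Dashed lines mark 2-fold differences. In this scaling, light chains (median 3.40) and Z-disc genes (2.21) lie at the top, and mitosis genes (-2.48) at the bottom.

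The lowest single gene of all belonged to no list. Tmem59, a membrane protein gene, stood at 2.50 in myoblasts and -1.97 in BIO cellulates, 22.2-fold lower, and Emsy, a chromatin protein gene, at 3.47 and -0.13 (12.2-fold). Both were at the myoblast level on the array of neurogenic cellulates, at 2.52 and 3.41, as was Tmem251 at 1.38, which was at least 11.4-fold lower in BIO cellulates. Each rests on 1 probe on 1 array. By contrast, the annexin gene Anxa8 went from 3.78 to 0.42 (10.2-fold lower) and stood at -2.31 in neurogenic cellulates, and the mast cell protease gene Mcpt4 went from 1.53 to -1.53 and -2.06 there.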

How the data were processed

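The authors deposited scanner files with several intensities per spot, of which the linear, background-subtracted intensity was used, made with Feature Extraction 10.7.3.1 from array design 014868 (build mm9), per the file headers. A deposited table of log2 values by the authors was used as an alternative: relative to log2 scanner intensity its columns are offset by 0.00 (myoblasts) and 0.67 (BIO cellulates), their medians are 7.42 and 7.77, and why these constants differ slightly from the difference in log2 75th percentile, 0.66, is unknown. Columns of other samples numbered 0.

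Here, control spots and outlier spots were left out, log2 intensities of a probe's spots were averaged, and each array's log2 75th percentile was subtracted. Of 41174 probes, 26918 were named through the accessions of the RefSeq gene table (GRCm38.p6) and 14256 were not. A gene took its brightest probe over the 3 arrays. A gene well above background on 1 array got a bound, the dim side being taken as its own signal or, if higher, the array's lowest level called well above background (-3.73 on the myoblast array and -2.73 on the BIO array), and a log2 ratio of 0 where that bound was under 1-fold. Of 498 genes measured on the BIO array only, 497 counted as higher by a bound. Of 1146 measured on the myoblast array only, 85 counted as lower and 738 got a log2 ratio of 0. The lowest level called well above background was higher on the BIO array, which makes bounds on the lower side smaller. It also makes bounds on the higher side larger. A gene at or under -3.73 in myoblasts passes 2-fold upward whenever the BIO array measures it. Being counted as higher by a bound thus adds little to being measured on the BIO array only, and the size of the bound carries the weight. Another 70 genes with probes that disagreed on background were left out. With 1 array per group no test was run. The fold of 2 is a rule of size. The counting was checked on simulated data. For the normexp alternative, the median intensities of spot and background were used in place of the mean intensity planned, and an offset of 50 was added. Python 3.11.15, pandas 2.3.3, R 4.3.3 and limma 3.58.1 were used.

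The gene lists, motifs and the choice of this comparison were made with earlier results of these data known. Named genes were the 15 largest differences each way among genes measured on both arrays, the 10 largest bounds each way, up to 6 members each way per list, and list members a reader would look for by role; others are said to be chosen after their values were seen. Some list members that count in the totals are not reported here by name.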

Additional observations from a re-analysis of the deposited data

How the results depend on the processing

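No paired analysis was possible because each group has 1 array. The main counts of 1440 genes at least 2-fold higher and 771 lower became 369 and 3701 with array median scaling and 352 and 352 with normexp correction and quantile normalisation. The count of higher genes became 820 with quantile normalisation, 943 with bounds left out and 4385 when dim probes were kept. The latter settings remove or add genes near background by construction, and array medians shift every log2 ratio by -0.72. Normexp adds an offset of 50 intensity units to every spot, beside array medians of 17.1 (myoblasts) and 17.9 (BIO cellulates), which shrinks folds of dim genes by construction. For quantile normalisation the cause was not tested. The counts stayed within 1.5 times under the 75th percentile over probes well above background on both arrays, the median over a gene's probes and the deposited values. The median of metalloproteinases and their inhibitors turned from -0.65 to 0.20 with no filter on dim probes, 1 of 7 lists whose median changed sign there, with neural progenitor factors (-0.07 to 0.79), osteoblast and chondrocyte markers (-0.00 to 0.98), fibroblast markers (-0.27 to 0.27) and beta-catenin targets (-0.05 to 0.33) among the others. With normexp and quantile normalisation 3 lists changed sign, all with medians near 0. Of 340 genes at least 2-fold different and considered for naming, 253 stayed so with array median scaling, 282 with quantile normalisation and 212 with normexp. Limits are the single array per group, the unknown number of cultures, and signals near background; 57.0% of genes measured on both arrays lay inside the repeat limit.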

Other observations

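Histone genes of the replication-dependent clusters (H2ac, H2bc, H3c and H4c genes and linker genes H1f1 to H1f5), a group chosen after its values were seen, were lower in 16 of 22 members compared and higher in 1, with a median log2 ratio of -1.81. H2ac23 went from 8.28 in myoblasts to 5.35 in BIO cellulates (7.63-fold lower), H3c4 from 8.80 to 6.96 (3.57-fold), H4c4 from 6.21 to 4.24 (3.92-fold) and the linker histone gene H1f5 from 2.86 to -0.04 (7.48-fold). The higher one, H2ac6, was near background and at least 2.87-fold higher. Copies of these genes are nearly identical, so several probes may read the same transcripts, and the members are not independent.

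Some of the genes furthest above their myoblast level belonged to none of the lists. Akr1c18, a steroid-converting enzyme gene, went from -2.98 to 4.14 (139-fold), and stands among the 15 largest differences. The following were chosen after their values were seen. Its relative Akr1c19 was 26.9-fold higher by its brighter probe, with 0.72 on the log2 scale by the other. The microsomal glutathione transferase Mgst1 was 32.1-fold higher, the muscle dehydrogenase Dhrs7c 29.3-fold, the calcium-gated potassium channel Kcnn3 23.5-fold, and the iron regulator hemojuvelin, Hjv, which skeletal muscle expresses, 23.1-fold. Oas1f, a relative of the interferon-induced Oas genes, went from -1.36 to 3.39 (26.9-fold), and the splicing factor Rbfox1 from 1.38 to 4.65 (9.58-fold).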
